A study of Mus musculus with 12 samples.

Results

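The genes Abcc8, Kcnj11, Cacna1d, Cacna1a, Trpm5 and Slc8a1, whose products set the electrical excitability of islet endocrine cells, were followed across 4 groups of cultured mouse islet cells. Members were taken by gene symbol, and all 6 genes were found, on 11 of the 22690 probe sets of the expression array. Each group held 3 arrays: alpha cells (aTC1) given 3.3 µM GW8510, aTC1 cells given 0.1% DMSO alone, beta cells (bTC3) given 3.3 µM GW8510, and bTC3 cells given 0.1% DMSO alone. The compound was dissolved in DMSO, so 0.1% DMSO was present in every group, and all cells were harvested on day 5 after medium and compound had been renewed on day 3. The treatment is described for both lines, whereas the culture medium and plating are described for aTC1 only. GW8510 is a small molecule known as an inhibitor of cyclin-dependent kinases, and the series set it against DMSO in each line, in search of how the compound induces insulin. Both lines come from islet tumours of mice carrying the SV40 large T antigen, and each cell type was represented by 1 line.

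In beta cells the ATP-sensitive potassium channel holds the membrane potential down until metabolism raises ATP. The channel then closes, the cell depolarises, voltage-gated calcium channels open, and the calcium that enters triggers hormone release. Cation channels that are activated by calcium add to the depolarisation, and sodium-calcium exchangers and calcium pumps clear calcium afterwards. Abcc8 encodes the regulatory subunit SUR1 and Kcnj11 the pore subunit Kir6.2 of the potassium channel. Cacna1d and Cacna1a encode the pore subunits of the L-type channel Cav1.3 and of the P/Q-type channel Cav2.1. Trpm5 encodes a calcium-activated channel for monovalent cations, and Slc8a1 encodes the exchanger NCX1.

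Values are the deposited linear array intensities, which run between a lower bound of 20 and an upper bound of 20000, and every fold change is a difference of mean log2 intensity between groups of 3 arrays. Differences were tested in limma, with p-values adjusted by Benjamini and Hochberg's method over the 22175 probe sets that entered the fit, and a probe set with an adjusted p under 0.05 was called changed. A probe set binds its own part of a transcript with its own efficiency, so intensities were compared only between arrays and never between probe sets. The array medians lay between 173.7 and 199.9, highest for replicate 3 of bTC3 with GW8510, and the lowest correlation between replicates of a group was 0.9942 to 0.9977. Glucagon (Gcg) stood at the upper bound on all 6 aTC1 arrays, and insulin 2 (Ins2) stood there on all 6 bTC3 arrays. The beta cell line also carried transcripts of other islet hormones: Gcg averaged 12000 ± 798 in bTC3 with GW8510 and 6420 ± 367 with DMSO (SD, n = 3 each), and somatostatin (Sst) reached 20000 with GW8510 and 17800 ± 646 with DMSO. The 9 measured markers of acinar, duct, fibroblast and endothelial cells had group means of 21.2 to 162. In these bulk samples, fewer cells of a kind and less RNA per cell cannot be told apart.

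No member probe set was called higher with GW8510 in either cell line. In aTC1 cells 6 of the 11 were called lower, against 20.2% of all probe sets called lower and 18.3% called higher. In bTC3 cells 5 of the 11 were called lower, against 13.4% of all probe sets called lower and 18.0% called higher. The median log2 fold change of the 11 was −0.29 in aTC1 and −0.23 in bTC3, where the medians of all probe sets were 0.02 and 0.06. Kcnj11 and 1 probe set each of Cacna1d, Cacna1a and Trpm5 were called lower in both lines, Abcc8 and the other Trpm5 probe set in aTC1, and Slc8a1 in bTC3. The difference between the lines was itself called for Abcc8 and Slc8a1.

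**Figure D1:**
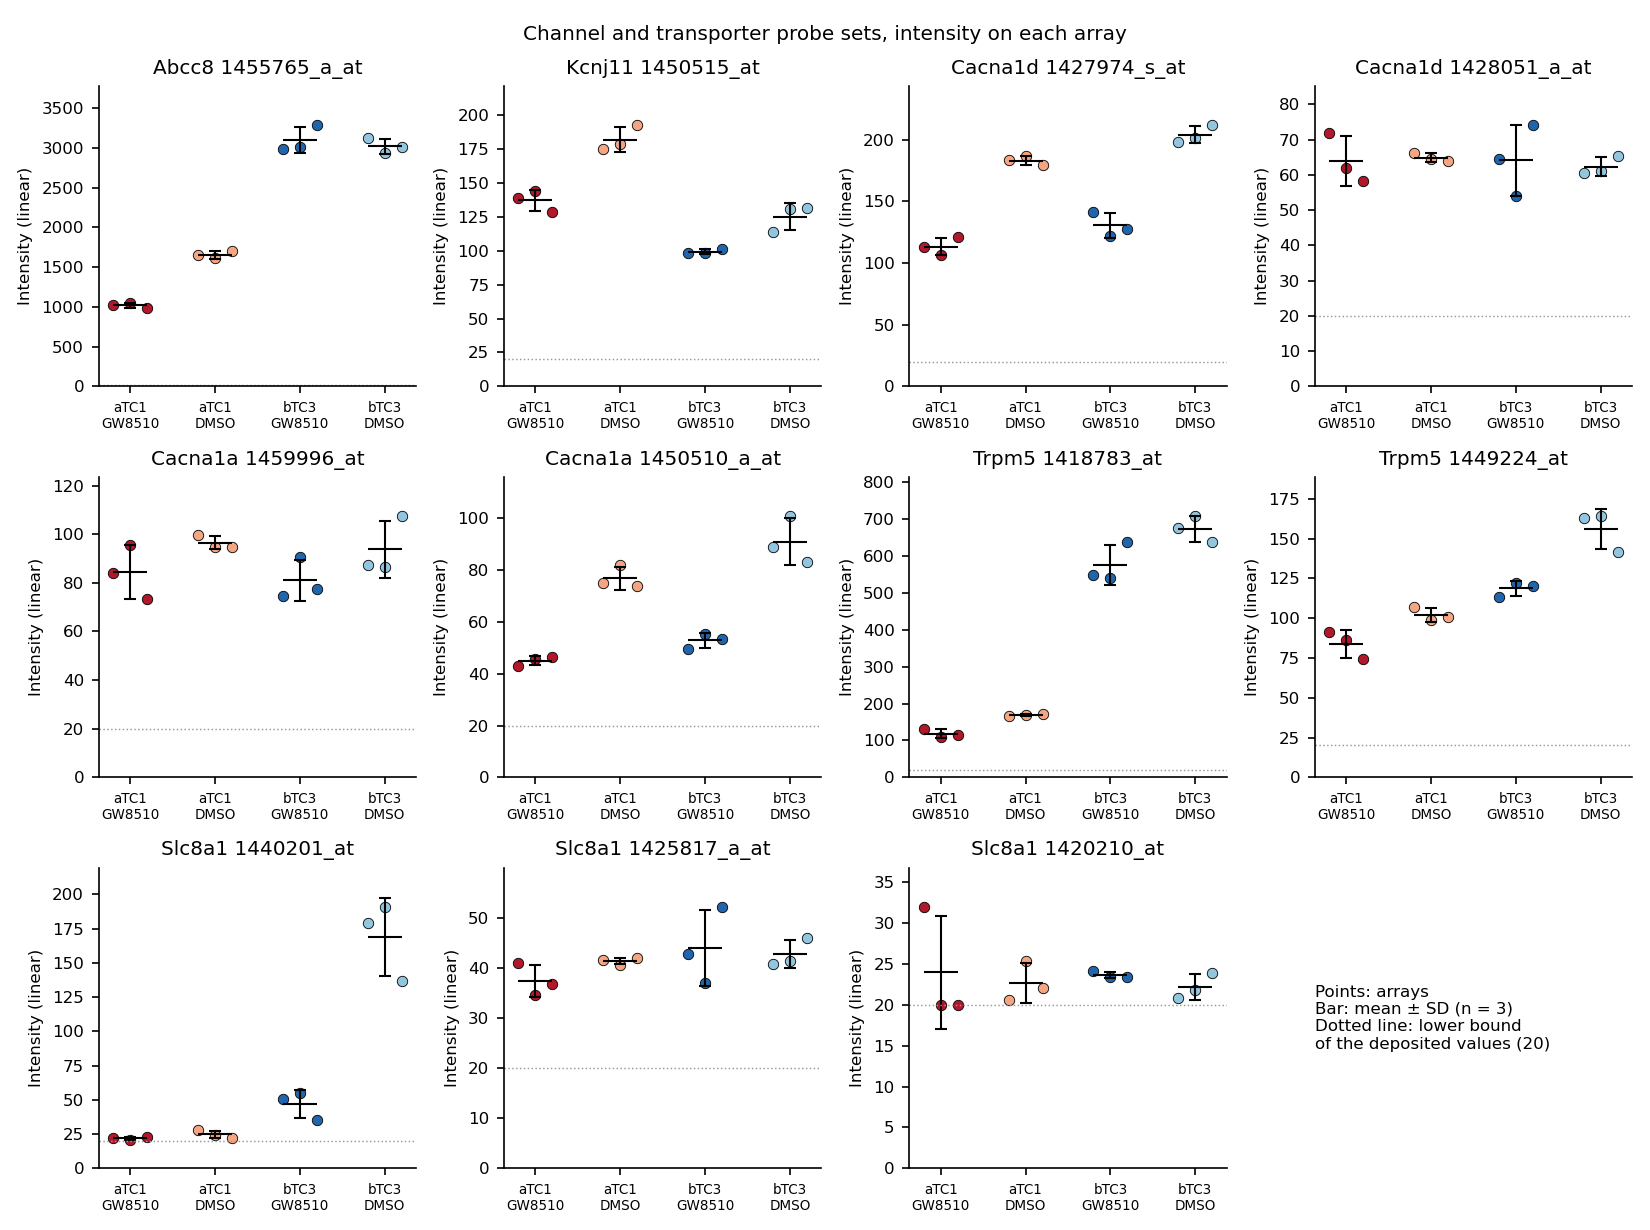
Deposited intensity (linear, arbitrary units) of the 11 member probe sets in aTC1 with GW8510, aTC1 with DMSO, bTC3 with GW8510 and bTC3 with DMSO. Points are the 3 arrays of a group, bars are mean and SD, and the dotted line is the lower bound of 20. Abcc8 lies near 1018 against 1654 in aTC1 and near 3095 against 3021 in bTC3, while Slc8a1 1440201_at lies near the lower bound in aTC1.

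The 2 subunits of the ATP-sensitive potassium channel are encoded by neighbouring genes, and both were measured by 1 probe set. Abcc8 (1455765_a_at) had intensities of 1027, 1042 and 985 in aTC1 with GW8510, against 1647, 1608 and 1706 in aTC1 with DMSO. In bTC3 it had 2989, 3013 and 3284 with GW8510, against 3122, 2935 and 3006 with DMSO. The aTC1 groups lay apart with GW8510 below, whereas the bTC3 groups overlapped. Abcc8 fell to 0.616 of its DMSO level in aTC1, a log2 fold change of −0.70 (SE 0.06, 95% confidence interval −0.82 to −0.58, adjusted p = 1.17e-06). In bTC3 its log2 fold change was 0.03 (interval −0.09 to 0.16, adjusted p = 0.687). The response in aTC1 minus that in bTC3 was −0.73 (SE 0.08, interval −0.91 to −0.56, adjusted p = 3.59e-05). The groups stood in the order aTC1 with GW8510, aTC1 with DMSO, and then both bTC3 groups, which did not differ beyond their spread. Between the lines, Abcc8 in aTC1 was at 0.329 of the bTC3 level with GW8510 (log2 −1.60, adjusted p = 2.55e-10) and at 0.547 with DMSO (log2 −0.87, adjusted p = 5.45e-08).

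Kcnj11 (1450515_at) showed 139, 144 and 128 in aTC1 with GW8510, against 175, 179 and 193 in aTC1 with DMSO. The bTC3 arrays showed 98.2, 98.0 and 101 with GW8510, against 114, 131 and 131 with DMSO. In each line all GW8510 arrays lay below all DMSO arrays. Unlike its partner subunit, Kcnj11 fell in both lines, by a log2 fold change of −0.41 in aTC1 (fold 0.753, interval −0.56 to −0.25, adjusted p = 0.000582) and of −0.33 in bTC3 (fold 0.794, interval −0.49 to −0.18, adjusted p = 0.00348). The 2 responses differed by −0.08, with an interval of −0.29 to 0.14 (adjusted p = 0.665). Kcnj11 was the only member called higher in aTC1 than in bTC3, by a log2 difference of 0.47 with GW8510 (fold 1.38, adjusted p = 0.000103) and of 0.54 with DMSO (fold 1.46, adjusted p = 3.14e-05). Its order of levels ran from aTC1 with DMSO through aTC1 with GW8510 and bTC3 with DMSO down to bTC3 with GW8510. The 2 groups in the middle lay close, at 137 ± 7.94 in aTC1 with GW8510 and 125 ± 10.0 in bTC3 with DMSO (SD, n = 3 each), and their arrays overlapped. Across the 12 arrays the log2 intensities of Abcc8 and Kcnj11 had a Pearson correlation of −0.56, which describes 4 groups rather than 12 independent conditions.

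The voltage-gated calcium channel genes each had 2 probe sets, and in each gene only 1 of the pair was called. Cacna1d (1427974_s_at) had 113, 107 and 121 in aTC1 with GW8510, against 183, 187 and 179 with DMSO. In bTC3 it had 141, 122 and 128 with GW8510, against 198, 202 and 212 with DMSO. The GW8510 arrays lay below the DMSO arrays in both lines, without overlap. Its log2 fold change was −0.69 in aTC1 (fold 0.618, interval −0.84 to −0.55, adjusted p = 5.86e-06) and −0.65 in bTC3 (fold 0.639, interval −0.79 to −0.50, adjusted p = 2.26e-05), and the difference of −0.05 had an interval of −0.25 to 0.16 (adjusted p = 0.796). The other Cacna1d probe set, 1428051_a_at, kept a narrow range of group means, 63.9 ± 7.05 in aTC1 with GW8510, 64.9 ± 1.30 in aTC1 with DMSO, 64.1 ± 10.1 in bTC3 with GW8510 and 62.3 ± 2.73 in bTC3 with DMSO. Its groups overlapped in every comparison, with log2 fold changes of −0.03 in aTC1 (interval −0.26 to 0.21) and 0.03 in bTC3 (interval −0.20 to 0.26). The pair of Cacna1d probe sets had a correlation of 0.0 over the 12 arrays.

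Cacna1d has 2 annotated starts with a promoter window in the RefSeq table, and both windows are printed because 1427974_s_at, though not 1428051_a_at, fell by a like amount in both lines. Each runs from 250 bases before to 50 after the start, on the minus strand of build GRCm38.p6, and is written 5′ to 3′ in the direction of transcription. Capitals mark every match to the motifs searched on both strands. These were the E-box, written CANNTG, the GC box, written GGGCGG, the TATA motif, written TATAAA, and the core of the cAMP response element, written TGACG. The last was the p53 half-site, written RRRCWWGYYY (R is A or G, W is A or T, Y is C or T). The outer window lies at chr14:30491107-30491406, the inner one at chr14:30353437-30353736.
Cacna1d outer start: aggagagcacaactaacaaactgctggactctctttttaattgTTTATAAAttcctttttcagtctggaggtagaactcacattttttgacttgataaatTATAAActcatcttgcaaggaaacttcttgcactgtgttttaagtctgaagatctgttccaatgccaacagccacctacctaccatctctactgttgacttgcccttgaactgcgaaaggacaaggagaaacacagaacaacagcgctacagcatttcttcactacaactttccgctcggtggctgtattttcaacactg
Cacna1d inner start: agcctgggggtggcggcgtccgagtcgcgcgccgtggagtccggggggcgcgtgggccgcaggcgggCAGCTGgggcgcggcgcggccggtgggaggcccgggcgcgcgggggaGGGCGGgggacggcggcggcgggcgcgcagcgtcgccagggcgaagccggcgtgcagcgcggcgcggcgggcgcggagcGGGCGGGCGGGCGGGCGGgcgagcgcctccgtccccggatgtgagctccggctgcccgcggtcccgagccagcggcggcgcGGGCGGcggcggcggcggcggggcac
The windows differ in composition, with 40.3% G and C at the outer start and 87.3% at the inner. The outer window holds TATAAA at −207 and −205, overlapping on opposite strands, and at −150. The inner window holds 1 E-box at −183 and GC boxes at −136, −57, −53, −49, −45 and 25, of which those from −57 to −45 overlap. Of 32841 promoter windows in the table, 72.3% hold the E-box, 35.7% the GC box and 13.6% TATAAA. Neither window holds TGACG, found in 20.8% of windows, or the p53 half-site in these strict letters, found in 8.36%. Looser p53 elements, and sequence outside the windows, were not searched. A match describes these letters only, and which start was used was not measured.

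Cacna1a was read by 1459996_at, its leading probe set and the one without a call, and by 1450510_a_at. On 1450510_a_at the intensities were 43.1, 45.9 and 46.5 in aTC1 with GW8510, against 75.0, 81.9 and 73.8 with DMSO. The bTC3 arrays gave 49.8, 55.4 and 53.4 with GW8510, against 88.9, 101 and 83.1 with DMSO. The separation was complete in both lines, and the highest GW8510 array stood well under the lowest DMSO array. The log2 fold change was −0.77 in aTC1 (fold 0.587, interval −0.94 to −0.60, adjusted p = 9.12e-06) and −0.78 in bTC3 (fold 0.582, interval −0.95 to −0.61, adjusted p = 1.81e-05). The responses differed by 0.01, with an interval of −0.23 to 0.25. On 1459996_at the means were 84.3 ± 11.1 in aTC1 with GW8510 and 96.5 ± 2.75 with DMSO, and 81.0 ± 8.51 in bTC3 with GW8510 and 93.8 ± 11.8 with DMSO (SD, n = 3 each). Both comparisons overlapped, with log2 fold changes of −0.20 in aTC1 (interval −0.45 to 0.04, adjusted p = 0.188) and −0.21 in bTC3 (interval −0.45 to 0.04, adjusted p = 0.188). The intervals of 1459996_at and 1450510_a_at did not meet in either line, so the size of the Cacna1a response depended on the probe set.

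The called probe sets of these calcium channel genes followed each other across the 12 arrays, with a correlation of 0.95 between Cacna1d 1427974_s_at and Cacna1a 1450510_a_at. Both had the order aTC1 with GW8510, bTC3 with GW8510, aTC1 with DMSO, bTC3 with DMSO from low to high. With GW8510 both were called lower in aTC1 than in bTC3, Cacna1d by −0.20 (adjusted p = 0.0214) and Cacna1a by −0.23 (adjusted p = 0.0256), and with DMSO Cacna1a by −0.24 (adjusted p = 0.0208) and Cacna1d by an uncalled −0.16 (adjusted p = 0.0686). These small line differences depended on the processing and on single arrays. With all arrays kept, the Cacna1d value with GW8510 was not called under repeated quantile normalization (adjusted p = 0.112), with arrays centred on their medians (0.19), with only the compared groups fitted (0.0837) or with a trend and robust prior (0.0751). The Cacna1a value was likewise lost with GW8510 (0.0632, 0.139 and 0.074 under quantile normalization, centring and the trend prior) and with DMSO (0.0516 with only the compared groups and 0.0625 with the trend prior). With GW8510, the Cacna1d value was −0.16 without aTC1 GW8510 replicate 2 (adjusted p = 0.0922) and −0.14 without bTC3 GW8510 replicate 1 (adjusted p = 0.0945). The Cacna1a value with GW8510 was −0.19 without aTC1 GW8510 replicate 1 (adjusted p = 0.0804), −0.19 without bTC3 GW8510 replicate 2 (adjusted p = 0.0905) and −0.22 without bTC3 GW8510 replicate 3 (adjusted p = 0.0588). With DMSO it was −0.22 without aTC1 DMSO replicate 1 (adjusted p = 0.0649), −0.21 without aTC1 DMSO replicate 3 (adjusted p = 0.0748) and −0.16 without bTC3 DMSO replicate 2 (adjusted p = 0.0957). The Cacna1d difference with DMSO was called without bTC3 GW8510 replicate 1 (adjusted p = 0.0446) and with only the compared groups fitted (0.0158).

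Trpm5 stood far lower in aTC1 than in bTC3, most clearly on 1418783_at. This probe set showed 131, 109 and 115 in aTC1 with GW8510, against 165, 169 and 171 with DMSO. It showed 549, 540 and 638 in bTC3 with GW8510, against 677, 708 and 637 with DMSO. The aTC1 groups lay apart with GW8510 below, and in bTC3 the highest GW8510 array just passed the lowest DMSO array. In aTC1 the log2 fold change was −0.52 (fold 0.699, SE 0.08, interval −0.70 to −0.33, adjusted p = 0.000339), and in bTC3 it was −0.23 (fold 0.853, interval −0.41 to −0.05, adjusted p = 0.0543). The bTC3 value passed the threshold when array bTC3 GW8510 replicate 3 was left out (−0.31, adjusted p = 0.0133), and also without aTC1 GW8510 replicate 1 (adjusted p = 0.0281) or 2 (adjusted p = 0.0498). With all arrays kept it also passed under 6 other settings, with adjusted p-values of 0.00196 to 0.0493. The difference between the responses, −0.29 (interval −0.54 to −0.03), was not called (adjusted p = 0.101), and was −0.36 without aTC1 GW8510 replicate 1 (adjusted p = 0.0287).

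The other Trpm5 probe set, 1449224_at, had 91.3, 86.3 and 74.1 in aTC1 with GW8510, against 107, 98.7 and 100 with DMSO. In bTC3 it had 113, 122 and 120 with GW8510, against 163, 164 and 142 with DMSO. Both lines showed all GW8510 arrays below all DMSO arrays. Here the log2 fold change was −0.29 in aTC1 (fold 0.819, interval −0.47 to −0.10, adjusted p = 0.0176) and −0.39 in bTC3 (fold 0.761, interval −0.58 to −0.21, adjusted p = 0.0038). The aTC1 call was lost without aTC1 GW8510 replicate 3 (−0.20, adjusted p = 0.0665) and without aTC1 DMSO replicate 1 (−0.25, adjusted p = 0.0692). The probe sets gave the same direction in both lines, the same order of groups (aTC1 with GW8510, aTC1 with DMSO, bTC3 with GW8510, bTC3 with DMSO, from low to high) and a correlation of 0.89 over the 12 arrays. Only the bTC3 groups of 1418783_at overlapped among neighbours in that order. Trpm5 1418783_at in aTC1 stood at 0.205 of the bTC3 level with GW8510 (adjusted p = 3.69e-10) and at 0.25 with DMSO (adjusted p = 1.24e-09). On 1449224_at the same ratios were 0.704 with GW8510 (adjusted p = 0.000237) and 0.654 with DMSO (adjusted p = 5.27e-05). The 300-base Trpm5 window at chr7:143094593-143094892 (RefSeq, GRCm38.p6, minus strand) holds none of the 5 motifs searched and is not printed.

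Slc8a1 was measured by 3 probe sets, of which 1440201_at separated the groups. It had 21.9, 20.4 and 23.0 in aTC1 with GW8510, against 27.8, 24.3 and 22.3 with DMSO. In bTC3 it had 50.7, 54.9 and 35.4 with GW8510, against 179, 191 and 137 with DMSO. The bTC3 groups lay far apart with GW8510 below, while the aTC1 groups overlapped. All 6 aTC1 arrays stood near the lower bound of 20, though none was at it, which left little room for a fall to be read. Slc8a1 fell to 0.276 of its DMSO level in bTC3, a log2 fold change of −1.86 (SE 0.16, interval −2.22 to −1.50, adjusted p = 7.1e-06), the widest GW8510 response among the 11 probe sets. It was −1.67 without bTC3 GW8510 replicate 3, the array with the highest median (adjusted p = 2.19e-05). In aTC1 the log2 fold change was −0.18 (interval −0.54 to 0.18, adjusted p = 0.44). The difference between the responses was 1.68 (SE 0.23, interval 1.17 to 2.18, adjusted p = 0.000253), and its aTC1 part rests on values near the bound. From low to high the order was aTC1 with GW8510, aTC1 with DMSO, bTC3 with GW8510 and bTC3 with DMSO, and the 2 aTC1 groups did not differ beyond their spread. The aTC1 intensity was 0.472 of the bTC3 level with GW8510 (log2 −1.08, adjusted p = 0.000101) and 0.148 with DMSO (log2 −2.76, adjusted p = 2.82e-08). As the aTC1 arrays lay near the bound, though not at it, these ratios rest on values close to the lowest that could be recorded.

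The remaining Slc8a1 probe sets gave no call in the fit reported here. On 1425817_a_at the 12 arrays ran from 34.6 to 52.2, and on 1420210_at from the lower bound of 20 to 32.0, with group overlap in both GW8510 comparisons of each. Their log2 fold changes were −0.15 and 0.05 in aTC1, and 0.03 and 0.09 in bTC3. Over the 12 arrays, 1440201_at had a correlation of 0.26 with 1425817_a_at and of −0.14 with 1420210_at. The Slc8a1 call in bTC3 therefore came from 1 of 3 probe sets, and which transcripts each of them reads was not tested. With GW8510, leaving out a single array brought a call between the lines on 1420210_at (−0.24 without aTC1 GW8510 replicate 1, adjusted p = 0.0379) and on 1425817_a_at (−0.34 without bTC3 GW8510 replicate 2, adjusted p = 0.0137). With all arrays kept, 1425817_a_at was called lower with GW8510 in aTC1 under repeated quantile normalization (adjusted p = 0.0428) and array weights (adjusted p = 0.00806), and lower in aTC1 than in bTC3 with GW8510 under both (0.0151 and 0.0126). On 1420210_at, 2 of the 3 aTC1 GW8510 arrays were at the bound, so the sign of its aTC1 value has no meaning.

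The Slc8a1 promoter window is shown beside the Cacna1d windows because this gene had the widest response in bTC3. It lies at chr17:81738338-81738637 on the minus strand of GRCm38.p6, was taken from RefSeq with the same 300 bases around the start, and capitals again mark motif matches.
Slc8a1: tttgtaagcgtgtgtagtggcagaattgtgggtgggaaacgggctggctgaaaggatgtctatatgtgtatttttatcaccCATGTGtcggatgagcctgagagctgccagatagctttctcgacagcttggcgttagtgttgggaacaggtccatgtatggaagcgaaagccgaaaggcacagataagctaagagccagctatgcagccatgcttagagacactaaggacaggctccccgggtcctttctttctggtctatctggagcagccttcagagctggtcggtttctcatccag
Its G and C share is 50.7%, and its only match is 1 E-box at −169. The table has windows for 3 of the 6 member genes, Cacna1d, Slc8a1 and Trpm5.

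**Figure D2:**
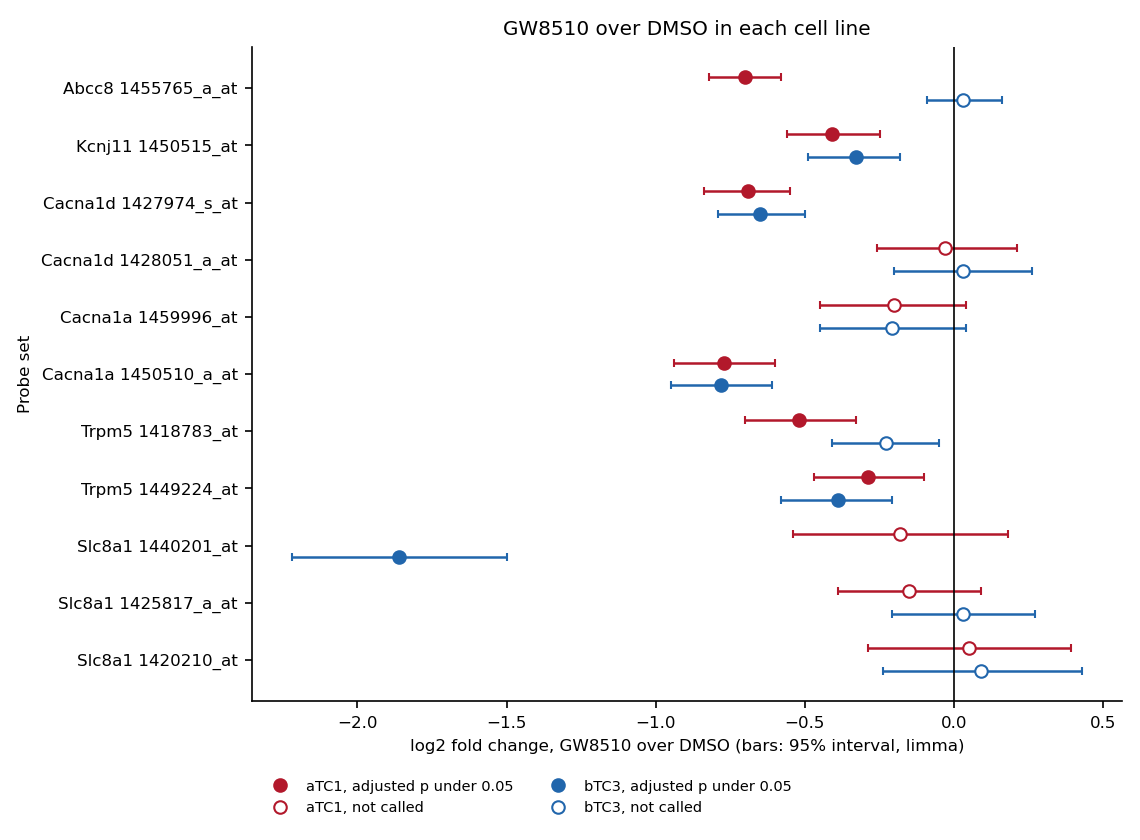
Log2 fold change of GW8510 over DMSO (x axis) for each member probe set in aTC1 (upper mark of each pair) and bTC3 (lower mark), with 95% confidence intervals. Filled marks had an adjusted p under 0.05. All filled marks lie left of 0, between −1.86 and −0.29.

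Set side by side, the 4 responses called in both lines were close in size on Kcnj11, Cacna1d 1427974_s_at, Cacna1a 1450510_a_at and Trpm5 1449224_at, and no difference between the lines was called for them. The differences ranged from −0.08 to 0.11 on the log2 scale, with intervals that reached −0.29 for Kcnj11 and 0.37 for Trpm5 1449224_at. In the comparison of the responses 1 member probe set was called higher in aTC1 (Slc8a1 1440201_at), against 10.5% of all probe sets, and 1 lower (Abcc8), against 14.8% of all. Without bTC3 GW8510 replicate 3, the number of member probe sets called lower was 6 in aTC1 and 6 in bTC3, and the Abcc8 and Slc8a1 differences were −0.69 and 1.485.

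Between the lines, 6 of the 11 member probe sets were called lower in aTC1 and 1 higher with GW8510, against 28.7% lower and 27.2% higher among all probe sets. With DMSO 5 were called lower and 1 higher, against 25.3% lower and 29.1% higher among all. Abcc8, both Trpm5 probe sets, Slc8a1 1440201_at and Cacna1a 1450510_a_at were lower in aTC1 under both conditions, and Kcnj11 was higher under both. The comparisons between lines share their arrays with the GW8510 comparisons, and they set 1 line of each cell type against the other.

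**Figure D3:**
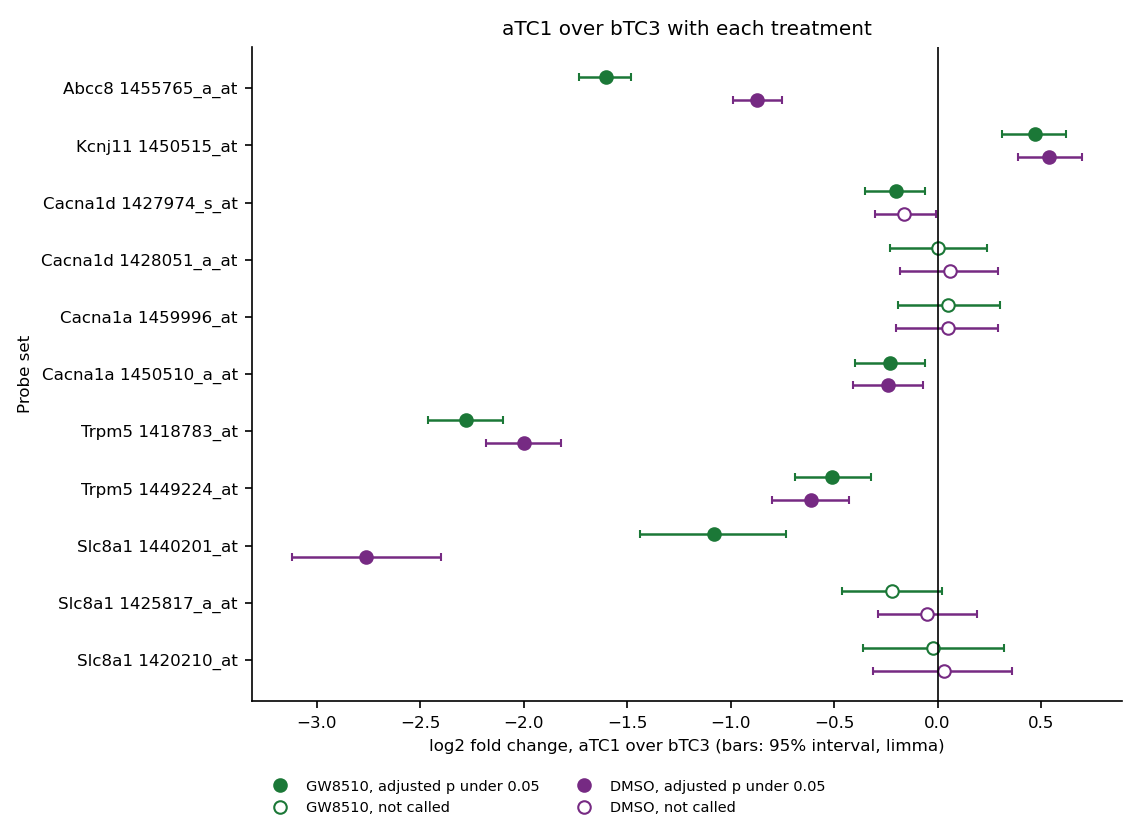
Log2 fold change of aTC1 over bTC3 (x axis) for each member probe set with GW8510 (upper mark) and with DMSO (lower mark), with 95% confidence intervals. Filled marks had an adjusted p under 0.05. Slc8a1 1440201_at with DMSO (−2.76) and Trpm5 1418783_at with GW8510 (−2.28) lie farthest left, and Kcnj11 (0.47 and 0.54) lies to the right.

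For each member gene the probe sets with the most similar pattern were sought among the 5445 candidate genes, by Pearson correlation of log2 intensity over the 12 arrays of 4 groups. The leading genes for Cacna1d were Nsmce1 (0.983), Cggbp1 (0.981) and Cplx2 (0.978). Cplx2, which encodes complexin 2, a SNARE-binding protein of regulated exocytosis, averaged 518 with GW8510 and 2050 with DMSO in aTC1, and 651 with GW8510 and 2340 with DMSO in bTC3. For Slc8a1 the leading genes were Cdh8 (0.978), Tenm1 (0.977) and Sez6l (0.973), and for Kcnj11 they were Tmem98 (0.982), Hint2 (0.98) and Dnmt1 (0.976). Abcc8 was led by Ska2 (0.998), Fkbp5 (0.997) and Ext2 (0.997), and Trpm5 by Bap1 (0.998), Mlxipl (0.998) and Syce2 (0.997). Cacna1a on 1459996_at had no close match, with Ntrk2 (0.718), B3galt6 (0.707) and the calcium pump gene Atp2b2 (0.697) at the top. With 4 group means behind 12 points, such correlations are easily high and describe a shared order of groups.

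The other channel, pump and exchanger genes of the array were read from 5 lists, 1 probe set per gene, leaving 123 measured genes. With GW8510, 15 were called higher and 28 lower in aTC1 (19.8% and 20.9% of all genes), and 15 higher and 17 lower in bTC3 (19.2% and 14.1% of all genes). Their median log2 fold change was 0.02 in aTC1 and 0.07 in bTC3, so the wider set of channel genes moved in both directions. The difference of the responses was called higher in aTC1 for 13 and lower for 17 (11.7% and 15.8% of all genes). Between the lines, 23 were called higher and 31 lower in aTC1 with GW8510 (27.2% and 30.3% of all genes), and 28 higher and 31 lower with DMSO (28.8% and 26.7% of all genes). Of the 18 calcium channel genes, 0 were called higher, 6 lower and 12 not at all in aTC1 (median −0.02), and 0 higher, 3 lower and 15 not at all in bTC3 (median 0.01). Of the 40 potassium channel genes, 2 were called higher, 8 lower and 30 not at all in aTC1 (median 0.03), and 1 higher, 7 lower and 32 not at all in bTC3 (median 0.01). The share of potassium channel genes called lower in each line, and of calcium channel genes called lower in bTC3, was near that of all genes.

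Cacng5, Cacna2d1 and another L-type pore gene were among the 6 genes of the calcium channel list called lower in aTC1. Cacng5, named as a gamma subunit, averaged 145 ± 5.52 with GW8510 and 909 ± 39.5 with DMSO (SD, n = 3 each; log2 −2.65, adjusted p = 3.21e-09), while −0.32 on its remaining probe set was not called (adjusted p = 0.0513). Cacna2d1, the alpha-2/delta subunit that brings channels to the membrane, averaged 553 ± 38.2 with GW8510 and 1420 ± 14.2 with DMSO (log2 −1.37), and its other probe set gave −0.90. Cacna1c, the pore of the L-type channel Cav1.2, averaged 196 ± 26.8 with GW8510 and 467 ± 49.3 with DMSO (log2 −1.26, adjusted p = 8.53e-06). In bTC3 the calls were Cacna1c (log2 −0.56; 306 ± 44.5 with GW8510 and 449 ± 34.6 with DMSO), Cacna2d1 (log2 −0.48; 751 ± 84.5 with GW8510 and 1050 ± 150 with DMSO) and Cacng4, also named as a gamma subunit (log2 −0.43; 207 ± 6.33 with GW8510 and 279 ± 33.4 with DMSO). The response was lower in aTC1 than in bTC3 by a called difference for Cacng5 (−2.93, adjusted p = 7.3e-08), Cacna2d1 (−0.88) and Cacna1c (−0.70, adjusted p = 0.0134).

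Potassium channel genes with the widest falls in aTC1 were Kcne1, an accessory subunit (log2 −1.89; 23.6 ± 3.82 with GW8510, where 1 of 3 arrays was at the lower bound and the change is a limit, and 87.4 ± 13.5 with DMSO), Kcnk3, the leak channel TASK-1 (log2 −1.38; 310 ± 26.4 with GW8510 and 808 ± 123 with DMSO), and Kcnmb2, a beta subunit of the large-conductance calcium-activated channel (log2 −1.03; 63.5 ± 8.21 with GW8510 and 129 ± 12.4 with DMSO). Of the other Kcnk3 probe sets, 1 gave −0.44 and 1 gave 0.01. In bTC3 Kcnmb2 fell further, to 183 ± 24.7 with GW8510 against 546 ± 36.2 with DMSO (log2 −1.59, adjusted p = 1.86e-06), together with the A-type channel gene Kcnd2 (log2 −1.24) and the ether-a-go-go channel gene Kcnh1 (log2 −1.16). The widest rise among potassium channel genes in aTC1 was that of the accessory subunit gene Kcne2 (log2 1.10; 43.9 ± 2.09 with GW8510 and 20.5 ± 0.925 with DMSO, where 2 of 3 arrays were at the lower bound).

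Of the 20 genes for calcium stores, entry and extrusion, 3 were called higher, 2 lower and 15 not at all in aTC1 (median 0.01). In bTC3, 5 were called higher, 2 lower and 13 not at all (median 0.17). Among all genes, 19.8% were called higher and 20.9% lower in aTC1, and 19.2% higher and 14.1% lower in bTC3. Atp2b2, a plasma membrane calcium pump, fell to 118 ± 21.0 with GW8510 against 284 ± 32.1 with DMSO in aTC1 (log2 −1.27) and to 119 ± 22.8 with GW8510 against 280 ± 10.1 with DMSO in bTC3 (log2 −1.25), and its other probe sets gave −0.91 and −0.51 in aTC1 and −0.94 and −0.43 in bTC3. In bTC3 the ryanodine receptor gene Ryr2 (log2 1.41; 119 ± 33.8 with GW8510 and 43.6 ± 3.39 with DMSO) and Atp2a3, which encodes the endoplasmic reticulum pump SERCA3 (log2 1.14; 956 ± 69.3 with GW8510 and 434 ± 33.8 with DMSO), were higher with GW8510. The other Ryr2 probe set gave 0.28 without a call (adjusted p = 0.131), and the other Atp2a3 probe set gave a called 0.64. Both genes differed between the lines in their response, Ryr2 by −1.41 and Atp2a3 by −1.15.

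Among sodium channel genes, Scn3b, a beta subunit, was up-regulated 6.55-fold in aTC1, to 445 ± 21.8 with GW8510 against 68.3 ± 10.1 with DMSO (SD, n = 3 each; log2 2.71, adjusted p = 8.02e-09), and by 0.71 on its remaining probe set. Its response differed between the lines by 2.37 (adjusted p = 1.02e-06). Scn8a, the pore of Nav1.6, fell in both lines on its leading probe set (log2 −0.60 in aTC1 and −0.68 in bTC3), whereas its other probe set gave 0.04 and 0.03. Of the transient receptor potential and chloride channel genes, the cation channel gene Trpv2 was up-regulated in aTC1 to 767 ± 38.4 with GW8510 against 274 ± 9.68 with DMSO (log2 1.48) and by 0.55 in bTC3. Clcn5, a chloride-proton exchanger, was higher in both lines (log2 0.85 in aTC1 and 0.77 in bTC3). Slc12a5, the potassium-chloride cotransporter KCC2, was lower in both on its leading probe set (log2 −1.13 in aTC1 and −0.98 in bTC3), with −0.00 and −0.05 on its other probe set.

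**Figure D4:**
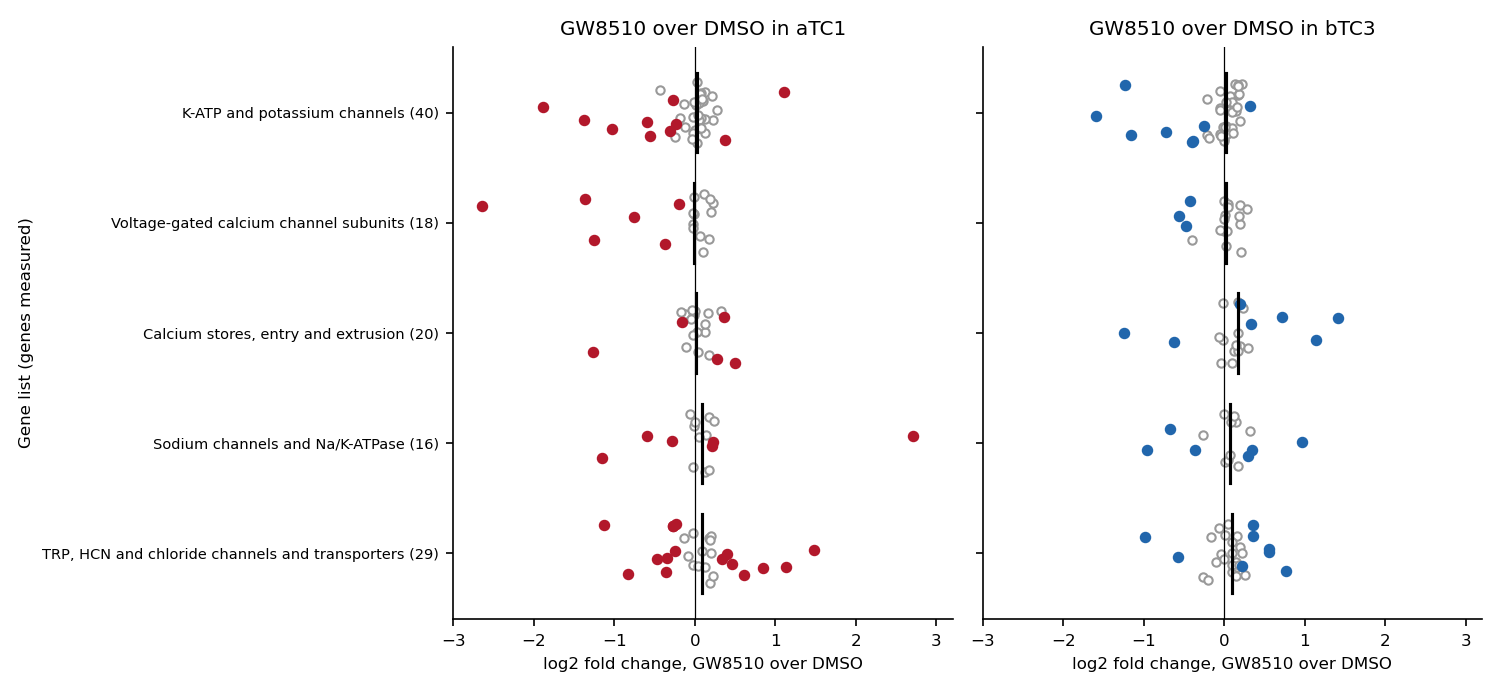
Log2 fold change of GW8510 over DMSO (x axis) for the 123 other channel, pump and exchanger genes in 5 lists (y axis). The left panel is aTC1 and the right panel bTC3. Filled points had an adjusted p under 0.05, open points did not, and black bars are list medians. Calls among the calcium channel genes lie left of 0 in both lines, and Scn3b (2.71) lies farthest right in aTC1.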

How the data were processed

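RNA (500 ng per sample) from 12 cultures was hybridised to Affymetrix Mouse Genome 430A arrays. The authors deposited RMA-processed values, and the deposited columns hold linear intensities, never below 20 or above 20000. Who set these bounds, and the RMA version, are not given in the sources used here. Values at or near a bound can hide a difference between groups and can shrink or widen a difference of responses. Intensities were log2-transformed with no pseudocount. Of 22690 probe sets, 64 control probe sets and 451 at the same bound on all arrays were left out. Group means of the 4 groups were fitted with limma 3.58.1 (R 4.3.3, lmFit and eBayes), and Benjamini-Hochberg adjustment ran over the 22175 probe sets tested. The array number, 3 per group, limits the precision, with a median standard error of 0.0873 on the log2 scale. The labels call the replicates biological. Probe sets were named by the platform table, where 20380 have 1 gene symbol, 691 several and 1555 none, and those with several or none were named for no gene. For list genes, the leading probe set is the one with the highest mean over all 12 arrays. List genes named were drawn from those with the widest called changes whose groups' arrays did not overlap. Up to 3 were selected in each direction, list and comparison, and not all of them are named. Members and lists were chosen with earlier results of these data known. Alternatives tried were scaling, filters, the fit, a replicate block and leaving out each array. Replicate numbers were checked for pairing. The fitting code was tested on simulated data.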

Additional observations from a re-analysis of the deposited data

Results flagged for a closer look

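The GW8510 responses of the 2 cell lines were tested against each other for every member probe set, and 2 differed. For Abcc8 1455765_a_at the response in aTC1 minus that in bTC3 was −0.73 on the log2 scale (limma, adjusted p = 3.59e-05), with all 3 GW8510 arrays below all 3 DMSO arrays in aTC1 and overlap in bTC3. For Slc8a1 1440201_at the difference was 1.68 (limma, adjusted p = 0.000253), with all 3 GW8510 arrays below all 3 DMSO arrays in bTC3, overlap in aTC1, and every aTC1 array near the lower bound of 20.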

How the results depend on the processing

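The 55 member values were recomputed 1214 times under the alternatives. The call and direction stayed in 1122, a call was lost in 19 and gained in 20, and 53 values, all uncalled, changed sign. For the 100 selected list gene values, not all of them named in the text, 37 of 2283 recomputed values lost the call and 0 changed sign. Member probe sets called lower with GW8510 numbered 4 to 7 in aTC1 and 4 to 6 in bTC3 over all alternatives. In the difference of responses, 2 were called lower under repeated quantile normalization and under array weights (1 to 2 when single arrays were left out), where Trpm5 1418783_at was added, and 0 were called higher without the dimmest 25% of probe sets, which drops Slc8a1 1440201_at. Trpm5 1418783_at also became called in bTC3 under 9 of 23 alternatives. With 1 probe set per gene, 3 members were lower in aTC1 than in bTC3 with DMSO. Among the other channel genes, array weights gave 24 higher with GW8510 in aTC1, and dropping the dimmest 25% gave 11 lower in the difference of responses and 18 higher in aTC1 with DMSO, with fewer genes tested. The cause of the other shifts was not tested.

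Uncalled values that changed sign were small. Under repeated quantile normalization they were −0.013 for Slc8a1 1420210_at in aTC1, then in bTC3 −0.069 for Slc8a1 1425817_a_at, −0.061 for Cacna1d 1428051_a_at and −0.034 for Abcc8, between the lines with DMSO −0.005 for Slc8a1 1420210_at and −4.1e-05 for Cacna1a 1459996_at, and with GW8510 −0.0087 for Cacna1d 1428051_a_at. With each array centred on its median they were −0.0037 for Slc8a1 1425817_a_at and −4.4e-05 for Cacna1d 1428051_a_at in bTC3, 0.015 for Slc8a1 1420210_at and 0.01 for Cacna1d 1427974_s_at in the difference of responses, and 0.057 for Slc8a1 1420210_at between the lines with GW8510. With array weights they were −0.187 for Slc8a1 1420210_at in aTC1, and in bTC3 −0.043 for Slc8a1 1425817_a_at, −0.027 for Cacna1d 1428051_a_at and −0.0039 for Abcc8.

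Leaving out single arrays gave sign changes within these ranges. In aTC1 they were −0.174 to 0.164 for Slc8a1 1420210_at and −0.113 to 0.039 for Cacna1d 1428051_a_at. In bTC3 they were −0.104 to 0.143 for Slc8a1 1425817_a_at, −0.08 to 0.15 for Cacna1d 1428051_a_at and −0.0093 to 0.059 for Abcc8. In the difference of responses they were −0.268 to 0.07 for Slc8a1 1420210_at, −0.092 to 0.013 for Cacna1d 1427974_s_at, −0.177 to 0.053 for Cacna1d 1428051_a_at, −0.066 to 0.074 for Cacna1a 1450510_a_at and −0.095 to 0.103 for Cacna1a 1459996_at. Between the lines they were, with GW8510, −0.242 to 0.096 for Slc8a1 1420210_at, −0.118 to 0.112 for Cacna1d 1428051_a_at and −0.04 to 0.15 for Cacna1a 1459996_at, and with DMSO, −0.059 to 0.093 for Slc8a1 1420210_at, −0.078 to 0.0072 for Slc8a1 1425817_a_at and −0.0057 to 0.149 for Cacna1a 1459996_at.

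Arrays with the same replicate number had correlations of −0.141 to 0.137 between their deviations from the group means. Arrays with different numbers were not compared, so this check cannot decide whether the numbers pair the arrays. With the replicate number as a block within each line, 6 member probe sets were lower in aTC1 and 5 in bTC3, and no member call changed. That block could not be fitted between the lines, and a block across the lines, chosen after seeing the data, gave 6 lower and 1 higher in aTC1 with GW8510 and 5 lower and 1 higher with DMSO.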

Other observations

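The lines differed widely in some channel genes other than the 6 above. Kcnk2, the mechanosensitive leak channel TREK-1, averaged 862 ± 48.1 in aTC1 and 37.6 ± 4.98 in bTC3 with GW8510 (log2 4.53, limma, adjusted p = 2.99e-11), and 1270 ± 41.0 in aTC1 and 33.7 ± 6.19 in bTC3 with DMSO (log2 5.25, limma, adjusted p = 9.81e-12; SD, n = 3 each). Cacng5 averaged 145 ± 5.52 in aTC1 and 71.2 ± 12.3 in bTC3 with GW8510 (log2 1.04), and 909 ± 39.5 in aTC1 and 58.2 ± 3.03 in bTC3 with DMSO (log2 3.97), while its other probe set gave −0.04 with GW8510 (limma, adjusted p = 0.79) and 0.36 with DMSO (limma, adjusted p = 0.0244). Of the 20 genes for calcium stores, entry and extrusion, 1 was higher and 10 were lower in aTC1 with GW8510 (27.2% and 30.3% of all genes), and 0 were higher and 8 lower with DMSO (28.8% and 26.7% of all genes). They included Atp2a3 (113 ± 29.9 in aTC1 and 956 ± 69.3 in bTC3 with GW8510), the Golgi calcium pump gene Atp2c1 (323 ± 24.2 in aTC1 and 1030 ± 19.9 in bTC3 with GW8510), and Orai1, the pore of store-operated calcium entry (183 ± 5.06 in aTC1 and 458 ± 21.4 in bTC3 with GW8510). In that order, these probe sets gave log2 differences of −3.11, −1.68 and −1.33 with GW8510. The remaining probe set of each gene gave smaller ones, −0.93, −0.61 and −0.53.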
